A study of Mus musculus with 4 samples.

Results

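The 44 collagen chain genes of the mouse were examined in single-cell RNA sequencing of aortic arches. They were chosen by their symbols alone: every one of the 31053 genes counted whose symbol is Col, a type number, the letter a and a chain number. The rule itself uses no measured value, but it was set with earlier results of these data known. Each of the 44 had at least 1 unique molecular identifier (UMI, a tag that counts each captured mRNA molecule once) in the kept cells of both normocholesterolemic libraries. In the atherosclerotic libraries, 37 had one in the Nrf2 flox/flox library and 36 in the library labelled Nrf2 Cdh5tKO.

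Aortic arches with their branches and perivascular tissue were taken from male mice that were 3 months old when the experiment began, and viable cells were sorted and counted with a 10x 3′ kit. All mice carried a floxed Nfe2l2 allele (Nfe2l2tm1.1Sred, loxP sites around exon 5), and the Nrf2 Cdh5tKO mice also carried Tg(Cdh5-cre)1Spe, in which the promoter of VE-cadherin drives Cre in endothelial cells and in some blood cells. Atherosclerotic mice had 1 tail-vein injection of an AAV8 vector and then a high-fat diet for 21 weeks, while normocholesterolemic mice had saline and a standard diet, so vector and diet cannot be told apart. The tissue of 4 mice in each normocholesterolemic group and of 3 in each atherosclerotic group was pooled into 1 library per group. Values of the 4 libraries are given in the order normocholesterolemic Nrf2 flox/flox, normocholesterolemic Nrf2 Cdh5tKO, atherosclerotic Nrf2 flox/flox and atherosclerotic Nrf2 Cdh5tKO.

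Collagens are proteins of 3 alpha chains wound into a triple helix, and each chain has its own gene. Fibrillar types I, III and V give the vessel wall its tensile strength, type IV forms the mesh of basement membranes, type VI forms beaded filaments around cells, type VIII forms short-chain networks, and the FACIT types XII, XIV and XVI sit on the surface of fibrils. Types XV and XVIII, the multiplexins, bind basement membranes and carry sugar chains. In the aorta, adventitial fibroblasts and medial smooth muscle cells are known as the main makers of fibrillar collagen, and collagen is a main constituent of the cap of an atherosclerotic plaque.

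Several chains of 1 collagen lie side by side in the genome. In the GENCODE M21 annotation of GRCm38, Col4a1 and Col4a2 (chromosome 8) start head to head and overlap by 22 bases, Col4a3 and Col4a4 (chromosome 1) start head to head 71 bases apart, and Col4a5 and Col4a6 (chromosome X) 1308 bases apart. Col3a1 (chr1:45311538-45349706) and Col5a2 (chr1:45374321-45503282) lie tail to tail, 24614 bases apart. RefSeq start sites on GRCm38.p6 were matched for 35 of the 44 genes, with windows from 250 bases before to 50 after the start. Col1a1, Col14a1 and Col5a2 were among the genes not matched. Col6a2, Col9a1 and Col18a1 had more than a single matched start, and the counts of members below take each gene once. The 4 stretches below were picked for genes that the values turn on: Col18a1, the chain most in favour of smooth muscle, Col8a1, the chain most in favour of 1 fibroblast gate, Col3a1, a leading fibrillar chain, and the whole gap between Col4a4 and Col4a3, a pair with like differences between cell types. All are written 5′ to 3′ on the strand of the gene named first and end at the base before its GENCODE start. Capitals show the GC box GGGCGG or its reverse complement CCGCCC. For Col18a1 the GENCODE start is 77166548 and RefSeq has starts at 77166530 and 77113705, and which start the cells use was not determined.
Col18a1, chr10:77166549-77166648, minus strand: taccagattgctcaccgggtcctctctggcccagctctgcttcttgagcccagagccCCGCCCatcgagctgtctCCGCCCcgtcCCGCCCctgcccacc
Col8a1, chr16:57754738-57754837, minus strand: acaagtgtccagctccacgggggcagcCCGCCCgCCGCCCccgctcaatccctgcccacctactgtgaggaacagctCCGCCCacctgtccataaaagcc
Col3a1, chr1:45311438-45311537, plus strand: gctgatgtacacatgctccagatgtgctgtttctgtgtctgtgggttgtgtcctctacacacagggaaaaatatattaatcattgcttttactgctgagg
Col4a4 to Col4a3, chr1:82586850-82586920, minus strand: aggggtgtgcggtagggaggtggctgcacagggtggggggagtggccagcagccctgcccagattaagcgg
Col18a1 and Col8a1 each hold 3 GC boxes in these stretches, while Col3a1 and the gap between Col4a4 and Col4a3 hold none. Over the whole windows, searched on both strands, 22 of the 35 members held a GC box (62.9%), against 35.9% of all 27025 windows. CCAAT was found in 12 (34.3%, against 37.9% of all windows) and TATAA in 7 of 35 (against 25.5%). The core of the antioxidant response element that Nrf2 is known to bind, TGACNNNGC, was found in 7 of 35 (against 12.5%), namely Col24a1, Col9a2, Col4a2, Col6a5, Col7a1, Col13a1 and Col6a2. The motifs can overlap one another, and a match of letters is not a binding site.

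Of the 15599 barcodes, 14148 passed the filters, 1020 to 7890 in a library, with a median of 9200.5 to 14152.5 UMIs per kept cell. Any pair of libraries shared 1 to 7 kept cell barcodes, and these cells were left in. Cells were gated on 6 markers per type, none of them a collagen, which gave 3628, 1334, 420 and 942 fibroblasts, 949, 307, 65 and 236 smooth muscle cells and 42, 27, 22 and 13 endothelial cells. Another 3711 cells (26.2%) carried markers of several types and entered no group. All 6 fibroblast markers were detected in the fibroblast gate and all 6 smooth muscle markers in the smooth muscle gate of every library. The same markers define the gates, so their detection is no separate check of the types. Nfe2l2, the targeted gene, was not lower in the endothelial gate of the libraries labelled Nrf2 Cdh5tKO, at 193, 399, 191 and 294 UMIs per 1000000 (CPM). Whether these 3′ tags lie in the deleted stretch was not determined here, so they do not check the labels, and the genotype names below are those of the labels.

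Fibroblasts gave the largest share of their UMIs to collagen chains, smooth muscle cells less and endothelial cells least. In the fibroblast gate the 44 chains together held 1.05%, 1.44%, 1.05% and 0.889% of all UMIs (mean 1.11% ± 0.23, SD over the 4 libraries, which differ in condition). The smooth muscle gate had 0.473%, 0.617%, 0.462% and 0.391% (0.486% ± 0.094) and the endothelial gate 0.176%, 0.179%, 0.223% and 0.321% (0.225% ± 0.068). The ranges of the 3 gates did not overlap. In both stromal gates the library labelled normocholesterolemic Nrf2 Cdh5tKO was highest and the library labelled atherosclerotic Nrf2 Cdh5tKO lowest. The values of leukocytes are given as a guide to free RNA, from which collagen RNA of the leukocytes themselves cannot be told apart. The study lists Col3a1 among the genes enriched in a cluster of mononuclear phagocytes that it named hematopoietic progenitor cells/fibrocytes. It found classical macrophage markers lowest in that cluster and in a cluster of stem, endothelial and mesenchymal cells. It also proposes that the population from which these clusters were drawn holds cell types besides macrophages. The listing therefore does not settle whether leukocytes hold Col3a1 RNA of their own. The macrophage gate held 0.0283%, 0.0248%, 0.0138% and 0.0161% and the T cell gate 0.0202%, 0.0155%, 0.00700% and 0.00814%. Both were higher in the normocholesterolemic libraries. Over macrophages, T cells, B cells and neutrophils, Col1a1 reached at most 1.75% and Col4a1 at most 7.46% of its fibroblast level. Col14a1, the highest chain of macrophages by its mean, averaged 45.5 CPM there and 10.3 CPM in T cells. Col1a2 averaged 37.1 and 27.1 CPM, and the source of these differences was not tested. In every library, 22 chains of the fibroblast gate, 15 of the smooth muscle gate and 5 of the endothelial gate (Col4a1, Col4a2, Col5a2, Col8a1 and Col23a1) stood above the upper 95% counting limits of the macrophage and T cell gates. The share of all genes above such limits was not computed, so these counts say nothing particular to collagen. B cells and neutrophils, with fewer cells, did not enter these limits. Counting limits and intervals cover counting error only.

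The mix of families differed between the gates. Fibrillar chains took 69.8% ± 3.2 of the collagen UMIs of fibroblasts, 49.9% ± 3.4 of those of smooth muscle cells and 31.1% ± 5.1 of those of endothelial cells (SD, n = 4 libraries). FACIT chains, mostly Col14a1, took 14.5% ± 4.5 in fibroblasts and 3.27% ± 0.58 in smooth muscle cells. Basement membrane chains went the other way, with 5.78% ± 0.70 in fibroblasts, 21.3% ± 1.3 in smooth muscle cells and 50.7% ± 12.7 in endothelial cells. The multiplexins took 16.2% ± 1.5 in smooth muscle cells, against 1.59% ± 0.72 in fibroblasts. Beaded filament chains had 7.61% ± 0.13 in fibroblasts and 9.14% ± 0.56 in smooth muscle cells, and the transmembrane chains and the group of anchoring fibril and other chains had at most 0.185% in any library of either gate.

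The fibrillar chains led in fibroblasts. A level is given as UMIs per 1000000 UMIs of the gate (CPM). Reads come from the 3′ end, so a level does not grow with transcript length and chains were set side by side without dividing by length, though capture of 3′ ends can differ between genes. Col1a2, the second chain of type I collagen, stood at 3310, 4187, 3513 and 2915 CPM. Col3a1, which forms type III collagen alone, stood at 2161, 3222, 1508 and 1227 CPM, and Col1a1, the main chain of type I, at 1759, 2326, 1720 and 1395 CPM. Col1a2 was the highest chain in all 4 libraries, whereas Col3a1 was above Col1a1 in both normocholesterolemic libraries and below it in both atherosclerotic ones. Col14a1, which coats type I fibrils, stood at 1133, 1301, 1840 and 1536 CPM, higher in both atherosclerotic libraries than in either normocholesterolemic one. Col6a1 and Col6a2, which pair in type VI collagen, completed the 6 highest chains with 376, 463, 308 and 268 CPM and 283, 427, 281 and 252 CPM. Of the other chains, 18 averaged under 2 CPM or had no UMI: Col2a1, Col7a1, Col9a1, Col9a2, Col9a3, Col10a1, Col11a1, Col11a2, Col13a1, Col17a1, Col19a1, Col20a1, Col22a1, Col24a1, Col25a1, Col26a1, Col28a1 and Col6a4. Of these, Col10a1, known from cartilage growth plates, and Col19a1 had 0 UMIs in the fibroblast gate of every library, which allows up to 0.0721 to 0.50 CPM.

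Smooth muscle cells had a more even set of chains. Col3a1 stood at 859, 1184, 865 and 664 CPM and Col1a2 at 856, 1256, 706 and 612 CPM. Col18a1, whose cleaved end is endostatin, stood at 630, 650, 575 and 551 CPM and came next after them by its mean. The library labelled normocholesterolemic Nrf2 Cdh5tKO was highest for each of the 3. Col4a1 (443, 570, 444 and 419 CPM) and Col4a2 (229, 284, 236 and 197 CPM), the common pair of type IV collagen, and Col1a1 (439, 622, 425 and 367 CPM) made up the rest of the 6 highest. In contrast to the fibroblast gate, Col1a1 was below Col3a1 in every library.

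In endothelial cells the common basement membrane pair led in the normocholesterolemic libraries. The gate was small, with 104 cells and 700460 UMIs in all, so single chains rest on few UMIs. Col4a1 stood at 689, 736, 509 and 1041 CPM (164, 142, 80 and 117 UMIs) and Col4a2 at 311, 275, 229 and 356 CPM. Col5a2, a chain of type V collagen that regulates fibril width, stood at 101, 156, 407 and 872 CPM (24, 30, 64 and 98 UMIs). Col8a1, a short-chain collagen of vessel walls, had 29.4, 36.3, 318 and 267 CPM (7, 7, 50 and 30 UMIs), and Col18a1 21, 41.5, 108 and 276 CPM. Col5a2, Col8a1 and Col18a1 were each higher in both atherosclerotic libraries than in either normocholesterolemic one, without overlap. Over the whole gate, 34.6% of the 104 cells had a UMI of Col5a2, 17.3% of Col8a1 and 16.3% of Col18a1, against 87.5% for Col4a1. The atherosclerotic libraries held 22 and 13 of these cells, so the values can rest on few cells. Col3a1 had 181, 72.6, 127 and 107 CPM, with no such order. Markers of other types in the gate moved too: the 6 fibroblast markers summed to 2214, 778, 426 and 3489 CPM and the 6 smooth muscle markers to 681, 373, 261 and 3818 CPM, highest in the library labelled atherosclerotic Nrf2 Cdh5tKO. Pdgfra and Islr, and Myh11 and Cnn1, were at 0 there, and the part of such RNA in the endothelial values was not tested.

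**Figure D1:**
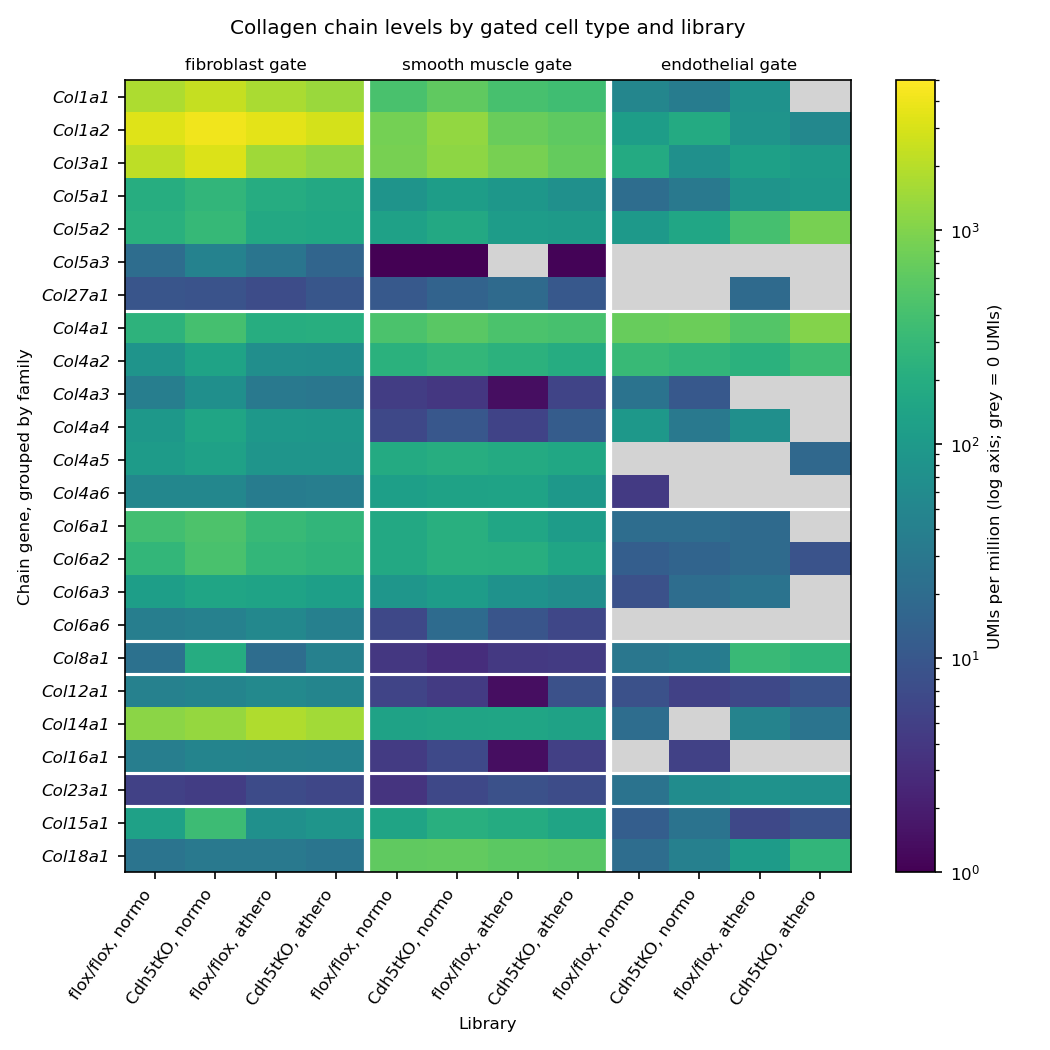
Level of the 24 chains tested between cell types in the fibroblast, smooth muscle and endothelial gates of each of the 4 libraries, as UMIs per 1000000 on a log colour scale, with 0 UMIs in grey and white lines between families. Col1a2 is the brightest row of the fibroblast gate (2915 to 4187), Col18a1 is bright in the smooth muscle gate (551 to 650) and dim in the fibroblast gate (26.8 to 31.6), and Col5a2 brightens in the endothelial gate of the atherosclerotic libraries (407 and 872 against 101 and 156).

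Shares of cells told of the same split. Col18a1 had a UMI in 95.1% of smooth muscle cells and 26.4% of fibroblasts, against 5.41% of macrophages and 3.39% of T cells, with median depths of 14807, 12646, 9076 and 6443.5 UMIs. After each cell was thinned to 5000 UMIs, which left out 135, 939, 209 and 230 shallower cells, the shares were 88.0%, 12.0%, 3.67% and 1.79%. Col4a1 was found in 87.5% of endothelial cells, at a median depth of 5050.5 UMIs, and in 7.79% of macrophages. Thinning, which left out 51 of the 104 endothelial cells, gave 86.8% and 4.27%. Col1a1 was found in 97.7% of fibroblasts, 93.9% of smooth muscle cells and 21.2% of endothelial cells, against 19.3% of macrophages. After thinning, the last 2 shares were 15.1% and 10.4%.

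The first comparison asks which chains distinguish fibroblasts from smooth muscle cells, each library holding both. It was tested with edgeR's quasi-likelihood test on UMI sums per library and cell type, with the library as a block and Benjamini-Hochberg adjustment over all 11740 genes that passed the filter on low counts. Of the 44 chains 24 passed that filter, 15 of them were higher in fibroblasts and 5 lower, at an adjusted p under 0.05, against 26.7% and 21.9% of all genes. The median log2 fold of the 24 was 1.14, against 0.05 over all genes.

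Fibrillar chains and their surface partners were on the fibroblast side. By edgeR's quasi-likelihood test with Benjamini-Hochberg adjustment, Col5a3, a minor chain of type V collagen, had the largest log2 fold at 5.20 ± 0.35 (SE; adjusted p = 6.6e-13), from 21.1, 44.2, 27.7 and 16.1 CPM in fibroblasts and 0.640, 0.653, 0 and 1.08 CPM in smooth muscle cells. Col1a2 was higher by 2.09 ± 0.19, Col1a1 by 1.97 ± 0.20, Col5a1 by 1.24 ± 0.17 and Col3a1 by 1.11 ± 0.21. Col5a2 (0.71 ± 0.30, adjusted p = 0.050) and Col27a1 (-0.48 ± 0.26, adjusted p = 0.13) did not pass. The 3 FACIT chains tested were all higher in fibroblasts: Col14a1 by 3.37 ± 0.21, Col16a1 by 3.12 ± 0.19 and Col12a1 by 3.06 ± 0.23. So were the 4 type VI chains tested, with Col6a6 at 2.09 ± 0.22, Col6a1 at 1.16 ± 0.18, Col6a2 at 0.75 ± 0.16 and Col6a3 at 0.62 ± 0.14. Col8a1 was higher by 3.62 ± 0.50.

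Type IV collagen divided between the cell types by its pairs. Col4a1 (log2 fold -0.84 ± 0.16) and Col4a2 (-1.43 ± 0.18) were lower in fibroblasts than in smooth muscle cells, and so were Col4a5 (-0.85 ± 0.15) and Col4a6 (-1.42 ± 0.14), a pair known from the basement membrane of smooth muscle. Col4a3 (3.27 ± 0.25) and Col4a4 (3.68 ± 0.23), a pair best known from the kidney filter, were higher in fibroblasts. In each of the 3 pairs, which lie head to head, both chains differed in the same direction. How often other neighbouring genes do so was not examined. Col4a4 stood at 93.4, 150, 93.9 and 90.5 CPM in fibroblasts and 6.26, 10.2, 5.47 and 11.9 CPM in smooth muscle cells, and the 2 ranges did not overlap. Col18a1 was the chain most in favour of smooth muscle, at -4.36 ± 0.26 (adjusted p = 6.5e-15 by edgeR with Benjamini-Hochberg adjustment), whereas the other multiplexin, Col15a1, did not pass (-0.33 ± 0.20, adjusted p = 0.17). Col23a1, a transmembrane collagen, had -0.01 ± 0.25. No chain called here lost its call in any alternative, as given under the dependence on processing.

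**Figure D2:**
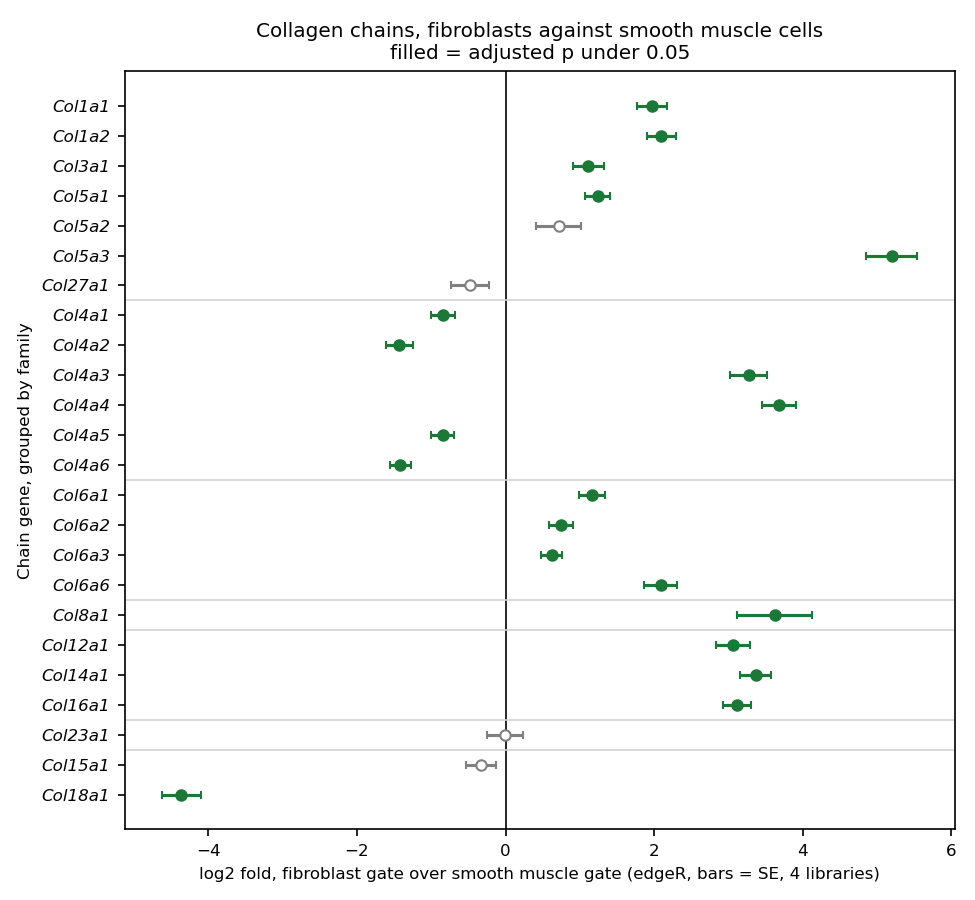
Log2 fold of fibroblasts over smooth muscle cells for the 24 chains tested, with the standard error as a bar, grouped by family; filled points passed an adjusted p of 0.05. Col4a3 and Col4a4 lie to the right (3.27 and 3.68) of the other type IV chains (-1.43 to -0.84), and Col18a1 lies farthest to the left (-4.36).

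The other 2 comparisons between types set endothelial cells against the stromal types in the same fit. Against smooth muscle cells 4 chains were higher and 13 lower, against 14.2% and 17.2% of all genes, and the median of the 24 chains was -2.92, against -0.13 over all genes. Of the 2 chains at 0 UMIs in the endothelial gate, Col6a6 has a limit here and Col5a3, near 0 in both gates, has none: the median was -2.47 with Col6a6 at its limit and -2.05 over the 23 chains with Col5a3 left out as well. Against fibroblasts 4 were higher and 17 lower, against 12.0% and 17.2% of all genes, with a median of -3.59, or -3.12 with 2 chains at their limit, against -0.16 over all genes. The filter on low counts was applied once to the whole fit, so a chain could enter through the larger gates alone. Besides the chains at 0, Col4a6 and Col16a1 had 1 UMI in the endothelial gate, Col4a5 had 2 and Col27a1 had 3. Chains that entered in this way could hardly be higher here, and the counts and medians include them. Col23a1 was higher in endothelial cells than in both (log2 fold 2.97 ± 0.35 over smooth muscle and 2.98 ± 0.33 over fibroblasts), from 25.2, 62.2, 76.3 and 71.2 CPM in the endothelial gate. Col8a1 (4.80 ± 0.72) and Col4a4 (2.46 ± 0.43) were higher than in smooth muscle cells, and Col4a2 (1.46 ± 0.23) and Col4a1 (1.23 ± 0.18) higher than in fibroblasts. Col4a4 rested on 39 UMIs in the endothelial gate, with 0 in the library labelled atherosclerotic Nrf2 Cdh5tKO. Col4a1 and Col4a2 did not pass against smooth muscle cells (0.38 ± 0.18, adjusted p = 0.11, and 0.03 ± 0.22, adjusted p = 0.96, by edgeR).

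Some endothelial calls rested on single libraries. Col5a2 was higher than in smooth muscle cells by 1.15 ± 0.38 (adjusted p = 0.019 by edgeR), but without the atherosclerotic Nrf2 flox/flox library the log2 fold was 0.93 (adjusted p = 0.13) and without the library labelled atherosclerotic Nrf2 Cdh5tKO it was 0.22 (adjusted p = 0.70). Col18a1 was higher than in fibroblasts by 1.39 ± 0.39 (adjusted p = 0.0068 by edgeR), and by 0.38 (adjusted p = 0.54) without the library labelled atherosclerotic Nrf2 Cdh5tKO. Col4a4 was lower than in fibroblasts by -1.22 ± 0.32, but not past the threshold (-0.79, adjusted p = 0.13) without the library labelled normocholesterolemic Nrf2 Cdh5tKO. Col5a1 was lower than in smooth muscle cells by -1.07 ± 0.32, but not without the normocholesterolemic Nrf2 flox/flox library (-0.73, adjusted p = 0.12) or without the one labelled Nrf2 Cdh5tKO (-0.72, adjusted p = 0.15). Among the lower chains, Col6a6 and Col5a3 had 0 UMIs in the endothelial gate. With 3 UMIs over the gate as the limit, they were at least 9.50-fold and at least 6.34-fold higher in fibroblasts, and Col6a6 was at least 2.15-fold higher in smooth muscle cells. Col4a5, with 2 UMIs in the endothelial gate, was 65.1-fold higher in smooth muscle cells (counting interval 18.0 to 537) and Col4a6, with 1, was 84.6-fold higher (15.2 to 3343). Of the abundant chains, Col14a1 was lower than in fibroblasts by -6.33 ± 0.34, Col1a1 by -5.70 ± 0.31 and Col1a2 by -5.35 ± 0.26. Col15a1 was lower than in smooth muscle cells by -4.01 ± 0.47 and Col6a2 by -3.98 ± 0.37.

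Fibroblasts were next divided by 4 gates on UMIs of genes that are not collagens: at least 3 of Pi16 and Dact2, at least 2 of Penk, Epyc and Fgf10, at least 3 of Cilp and Meox1, or at least 5 of Comp and Fmod. Pi16-positive fibroblasts are known as a common adventitial pool, and Comp, Fmod and Cilp encode matrix proteins of tendon and cartilage. The gates took 5237, 1826, 686 and 1114 of the 6324 fibroblasts, and 83.1% to 89.4% of the cells past any of the other gates were also past the Pi16/Dact2 gate. Cells past the Cilp/Meox1 gate made up 7.91%, 25.3%, 4.52% and 4.56% of the fibroblasts, highest in the library labelled normocholesterolemic Nrf2 Cdh5tKO. Those past the Comp/Fmod gate made up 14.7%, 16.3%, 26.4% and 26.8%, more in both atherosclerotic libraries. The gates count UMIs, so the 626 fibroblasts past none of them were shallow, with a median of 3578.5 UMIs against 13476 for the Pi16/Dact2 gate.

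With cells past 2 or more gates left out, as the design set it, each gate was compared with the fibroblasts past none over 6219 genes, 23 of them collagen chains, by edgeR's quasi-likelihood test with Benjamini-Hochberg adjustment. The Pi16/Dact2 cells had 2 chains higher, Col12a1 (log2 fold 1.73 ± 0.29) and Col14a1 (0.82 ± 0.26), and 3 lower, Col6a6 (-1.51 ± 0.17), Col27a1 (-1.24 ± 0.33) and Col4a6 (-0.99 ± 0.20), against 5.03% and 4.42% of all genes, with a median of -0.13. The Penk/Epyc/Fgf10 cells had 6 higher and 2 lower, against 3.33% and 3.31% of all genes, with a median of 0.20. Col5a3 (2.74 ± 0.28), Col15a1 (1.70 ± 0.26), Col4a1 (1.5 ± 0.25), Col6a3 (1.24 ± 0.23), Col4a2 (0.96 ± 0.23) and Col6a1 (0.90 ± 0.22) were higher, and Col8a1 (-1.66 ± 0.41) and Col4a6 (-1.48 ± 0.28) lower. The gates left few cells of 1 gate only outside Pi16/Dact2: 161, 28, 4 and 23 for Penk/Epyc/Fgf10, 31, 2, 1 and 4 for Cilp/Meox1, and 72, 14, 8 and 53 for Comp/Fmod. Of the Cilp/Meox1 cells Col12a1 was called higher (2.08 ± 0.53) and Col1a2 lower (-1.05 ± 0.30), against 1.13% and 3.04% of all genes, with a median of -0.30. Of the Comp/Fmod cells edgeR called 0 chains higher (5 at an unadjusted p under 0.05, and 0 by the DESeq2 Wald test) and Col8a1 lower (-2.75 ± 0.57), against 1.05% and 0.997% of all genes, with a median of 0.32. The median over all genes was -0.14 for Cilp/Meox1 and -0.01 to 0.00 for the others.

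Many of these calls rested on 1 library. Without the normocholesterolemic Nrf2 flox/flox library, no chain was called higher in the Pi16/Dact2 cells, where Col12a1 had 1.24 (adjusted p = 0.060) and Col14a1 0.73 (adjusted p = 0.060), and 1 was called lower. Col14a1 was also lost without any of the other 3 libraries (adjusted p = 0.070 to 0.16 by edgeR). Col12a1 in the Cilp/Meox1 cells turned to -0.28 without the normocholesterolemic Nrf2 flox/flox library. Col1a2 there was lost without that library or either library labelled Nrf2 Cdh5tKO, and Col8a1 in the Comp/Fmod cells without the library labelled atherosclerotic Nrf2 Cdh5tKO (-2.36, adjusted p = 0.055, by edgeR). In the Penk/Epyc/Fgf10 cells, Col4a6 (-0.80, adjusted p = 0.39) and Col4a2 (0.79, adjusted p = 0.23) were lost without the normocholesterolemic Nrf2 flox/flox library, and Col6a1 (0.80, adjusted p = 0.090) and Col8a1 (-1.38, adjusted p = 0.19) without the library labelled normocholesterolemic Nrf2 Cdh5tKO. When cells of several gates were counted in each, Col15a1 (-0.12), Col4a2 (-0.02) and Col8a1 (0.64) changed sign in the Penk/Epyc/Fgf10 cells and Col8a1 (0.42) in the Comp/Fmod cells.

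Because so few cells passed a single gate, each gate was also taken on its own, all fibroblasts past it against all others in the same library, an alternative chosen after seeing the data. Cells past the 4 gates had a median of 13476, 14354.5, 14928 and 12738 UMIs, against 7818, 11918.5, 12324 and 12624 UMIs for the fibroblasts not past them, a gap that was widest for Pi16/Dact2, and the part of depth in these results was not tested. Of the 26 chains tested for Pi16/Dact2, 3 were higher and 10 lower (4.83% and 4.34% of 11708 genes). Col12a1, a FACIT of dense tissue, was higher by 1.51 ± 0.13, from 46.1, 47.8, 56.5 and 54.2 CPM past the gate and 15.9, 18.2, 25.1 and 16.4 CPM not past it. Col8a1 was higher by 1.45 ± 0.14 and Col14a1 by 0.64 ± 0.09. The lower chains were led by Col6a5 (-2.11 ± 0.59), Col27a1 (-1.27 ± 0.22), Col6a6 (-1.18 ± 0.16), Col5a3 (-1.10 ± 0.16), Col23a1 (-1.05 ± 0.25), Col15a1 (-0.97 ± 0.19), Col6a3 (-0.82 ± 0.09) and Col4a6 (-0.77 ± 0.17), with Col4a1 and Col4a2 at -0.70 ± 0.08 and -0.68 ± 0.11. Without the normocholesterolemic Nrf2 flox/flox library 6 were lower, and Col4a6, Col15a1 and Col23a1 were lost (adjusted p = 0.091, 0.071 and 0.12, by edgeR), while Col6a5 was left untested by the filter on low counts. It was also untested without the library labelled normocholesterolemic Nrf2 Cdh5tKO. Col6a5 was lost without the library labelled atherosclerotic Nrf2 Cdh5tKO (-2.40, adjusted p = 0.050), and without the atherosclerotic Nrf2 flox/flox library 5 chains were higher.

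Past the Penk/Epyc/Fgf10 gate 2 of 26 chains were higher and 5 lower (5.16% and 5.93% of 11889 genes). Col5a3 was higher by 0.93 ± 0.09, at 30.9, 60.0, 41.2 and 27.0 CPM past the gate and 15.6, 37.4, 18.9 and 12.1 CPM not past it, higher in 4 of 4 libraries. Col6a3 was higher by 0.25 ± 0.06, a call lost without either normocholesterolemic library or without the library labelled atherosclerotic Nrf2 Cdh5tKO. Col4a6 was lower by -0.99 ± 0.08, Col4a3 by -0.43 ± 0.09, Col4a5 by -0.39 ± 0.11, Col1a1 by -0.37 ± 0.04 and Col1a2 by -0.30 ± 0.05, all by edgeR's quasi-likelihood test. The lower chains numbered 3 without the normocholesterolemic Nrf2 flox/flox library and 8 without the atherosclerotic Nrf2 flox/flox library. The median of the 26 chains was 0.00 here and -0.21 for Pi16/Dact2.

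Past the Cilp/Meox1 gate the short-chain network, a multiplexin and basement membrane chains were higher. Col8a1 stood at 138, 586, 247 and 416 CPM past the gate and 12.7, 44.9, 10.3 and 21.9 CPM not past it, and every library past the gate was above every library not past it. Its log2 fold was 3.90 ± 0.17 (adjusted p = 1e-06 by edgeR's quasi-likelihood test with Benjamini-Hochberg adjustment). Col8a2, its partner chain, was higher by 2.05 ± 0.27, and Col15a1 by 1.88 ± 0.13, from 308, 740, 272 and 329 CPM against 113, 197, 62.0 and 72.8 CPM. The type IV chains Col4a2 (1.27 ± 0.18), Col4a3 (0.95 ± 0.15), Col4a1 (0.90 ± 0.14) and Col4a6 (0.61 ± 0.15) and the chains Col5a3 (1.06 ± 0.26), Col5a2 (0.62 ± 0.10) and Col6a2 (0.53 ± 0.11) were also higher, 10 of 25 chains in all, against 3.51% of 11673 genes. Col14a1 (-0.70 ± 0.09) and Col6a6 (-0.67 ± 0.16) were lower, against 3.26% of all genes, and Col6a6 was lost without any 1 of 3 libraries (adjusted p = 0.074 to 0.29), the exception being the atherosclerotic Nrf2 flox/flox library. Col4a6 was lost without the normocholesterolemic Nrf2 flox/flox library (adjusted p = 0.081) and, like Col6a2 (0.41, adjusted p = 0.093), without the library labelled atherosclerotic Nrf2 Cdh5tKO. The median of the chains was 0.45.

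Past the Comp/Fmod gate the fibrillar chains of type I were higher. Col1a1 stood at 3591, 4255, 2656 and 2050 CPM past the gate and 1429, 1931, 1377 and 1134 CPM not past it, and Col3a1 at 2999, 4668, 1814 and 1435 CPM against 2010, 2926, 1396 and 1145 CPM. For Col1a1 the lowest library past the gate was above the highest not past it, while for Col3a1 the ranges overlapped and the gate was higher within each of the 4 libraries. Of 26 chains 13 were higher and 1 lower, but 12.7% and 12.6% of all 11551 genes were called, more than for the other gates. Col8a2 (1.65 ± 0.20), Col1a1 (1.09 ± 0.07), Col1a2 (0.99 ± 0.06), Col23a1 (0.92 ± 0.17), Col4a6 (0.86 ± 0.08), Col27a1 (0.75 ± 0.14), Col3a1 (0.51 ± 0.06) and Col6a6 (0.45 ± 0.13) had the largest log2 folds, and Col5a3 was lower by -0.73 ± 0.11. Col6a6, Col5a2 (0.23) and Col4a5 (0.37) were lost without the normocholesterolemic Nrf2 flox/flox library, Col6a6 also without either atherosclerotic library, and without the library labelled atherosclerotic Nrf2 Cdh5tKO 2 chains were lower. The median of the chains was 0.27, against -0.01 over all genes. Together the chains held 1.61%, 2.10%, 1.36% and 1.11% of the UMIs of these cells, the highest share of the 4 gates in both normocholesterolemic libraries, while the Cilp/Meox1 gate held 1.04%, 1.33%, 1.36% and 1.29%.

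**Figure D3:**
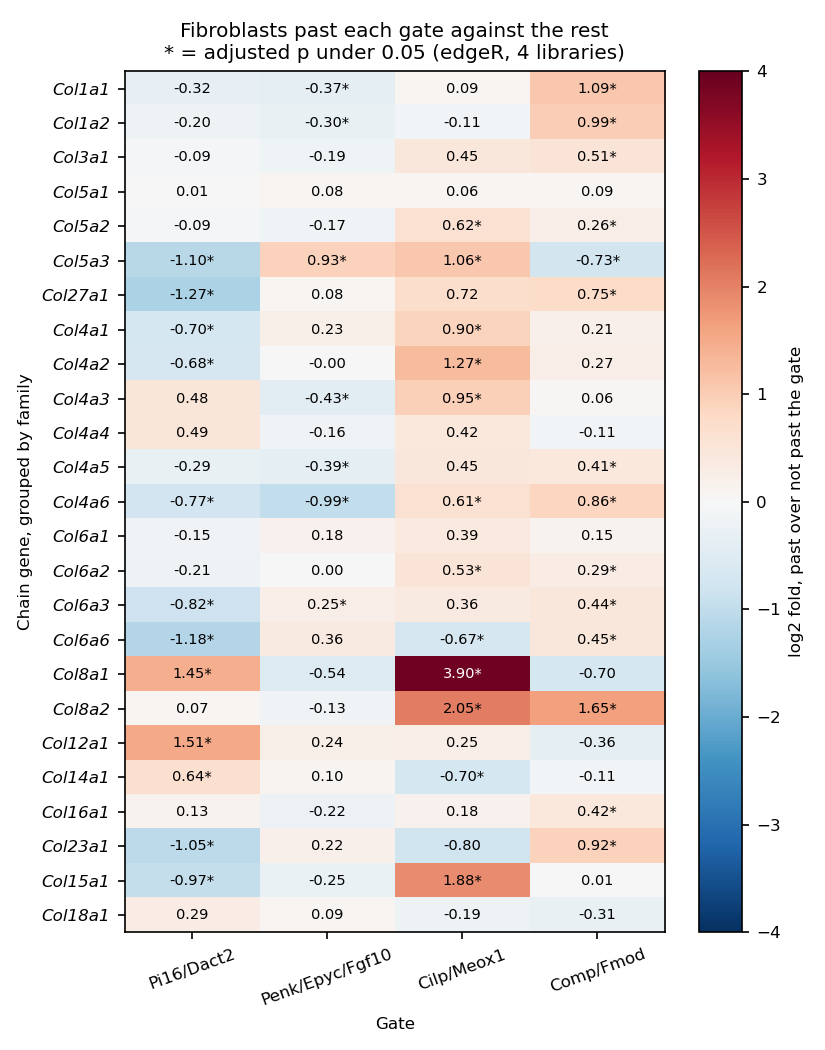
Log2 fold of fibroblasts past each of the 4 gates over the fibroblasts not past it, for 25 chains grouped by family, with an asterisk for an adjusted p under 0.05; Col6a5, tested in 3 of the 4 fits, is not drawn. Col8a1 (3.90), Col8a2 (2.05) and Col15a1 (1.88) stand out in the Cilp/Meox1 column, and Col8a2 (1.65), Col1a1 (1.09) and Col1a2 (0.99) in the Comp/Fmod column.

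Genes that make, cut, link or bind collagen were read alongside, 50 of them, of which 43 were tested. Between fibroblasts and smooth muscle cells 28 were higher in fibroblasts and 7 lower, against 26.7% and 21.9% of all genes. All 4 genes of propeptide removal that were tested were higher, with Pcolce, an enhancer of the protease that trims procollagen, at 5.12 ± 0.20. Of the genes for hydroxylation, glycosylation and folding 13 of 19 were higher and 1 lower, of crosslinking genes 3 of 5 and 1, and of breakdown genes 4 of 6, with the other 2 short of the threshold. The 9 receptor and uptake genes divided into 4 higher, with the integrin chains Itga11 (5.16 ± 0.34) and Itga2 (4.71 ± 0.53), and 5 lower, with Itga10 (-3.13 ± 0.32) and Itga1 (-2.52 ± 0.23). P3h2, a prolyl hydroxylase known to act on type IV collagen, was lower in fibroblasts by -3.71 ± 0.33. Against smooth muscle cells, endothelial cells had 3 pathway genes higher, Adgrg1 (6.43 ± 0.58), a receptor of type III collagen, Mmp2 (1.88 ± 0.49), a gelatinase, and Plod1 (1.45 ± 0.27), and 11 lower (against 14.2% and 17.2% of all genes), with Loxl1 at -3.49 ± 0.32, Plod2 at -2.78 ± 0.30 and Adamts2 at -2.75 ± 0.44. Against fibroblasts they had 5 higher, with Adgrg1 at 8.39 ± 0.58, Itga1 at 2.88 ± 0.28 and Tgm2 at 2.40 ± 0.24, and 26 lower (against 12.0% and 17.2%), with Itga11, Adamts2 (-5.15 ± 0.34) and Loxl1 (-5.06 ± 0.29) lowest. Markers of fibroblasts and smooth muscle cells were found in the endothelial gate, and the part of such RNA in these calls was not tested. Past the Comp/Fmod gate 23 of 40 were higher and 5 lower, against 12.7% and 12.6% of all genes, with 16 of the 18 folding and hydroxylation genes among the higher. Itga1 (1.74 ± 0.13), Lox (1.32 ± 0.08), which crosslinks fibrils, and Creb3l1 (0.99 ± 0.06), a known driver of type I collagen genes, led there, and Itga11 (-1.42 ± 0.19), Ddr2 (-0.95 ± 0.08) and Loxl2 (-0.53 ± 0.09) were lowest. Past the Pi16/Dact2 gate 8 of 41 were higher and 0 lower (by edgeR's adjusted p, without another tool run on these 4 fits), against 4.83% and 4.34% of all genes, with Itga2 (1.47 ± 0.31), Itga11 (1.38 ± 0.21) and Loxl4 (1.14 ± 0.28) leading. Past the Penk/Epyc/Fgf10 gate 4 of 42 were higher, Fap (0.65 ± 0.10) first, and 6 lower, Itga1 (-0.88 ± 0.14) first, against 5.16% and 5.93%. Past the Cilp/Meox1 gate 2 of 42 were higher, Colgalt2 (1.59 ± 0.34) and Mrc2 (0.58 ± 0.11), and 3 lower, Ddr2 (-0.71 ± 0.10) first, against 3.51% and 3.26%.

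Partner chains were set against each other within each library. The chains of type I collagen, which join as a pair of Col1a1 chains and a single Col1a2 chain, had Col1a1/Col1a2 ratios of UMIs of 0.531, 0.556, 0.490 and 0.478 in fibroblasts and a mean of 0.552 ± 0.056 (SD, n = 4) in smooth muscle cells. Capture of the 3′ ends can differ between genes, so a ratio shows unequal UMIs and not unequal molecules. Col4a1/Col4a2 was 2.99, 2.89, 2.99 and 3.23 in fibroblasts and 1.93, 2.01, 1.88 and 2.13 in smooth muscle cells, without overlap, and 2.51 ± 0.35 in endothelial cells. Col4a5/Col4a6 was 2.30 ± 0.20 in fibroblasts and 1.53 ± 0.17 in smooth muscle cells. Col5a1/Col5a2 was lowest in endothelial cells, at 0.181 ± 0.046, against 0.700 ± 0.090 in smooth muscle cells.

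Some of the partner ratios in fibroblasts separated the libraries by treatment in both genotypes. How often ratios of other gene pairs separate these libraries in the same way was not examined. Col3a1/Col1a1 was 1.23 (counting interval 1.22 to 1.24) and 1.39 (1.37 to 1.40) in the normocholesterolemic libraries and 0.877 (0.852 to 0.902) and 0.880 (0.859 to 0.901) in the atherosclerotic ones. Col6a3/Col6a1 was 0.310 and 0.320 against 0.459 and 0.454, and Col5a1/Col5a2 was 0.898 and 0.900 against 1.16 and 1.09. In none of the 3 did the intervals of the treatments overlap. Col1a1/Col1a2, given above, was also lower in both atherosclerotic libraries than in either normocholesterolemic one. Cells past the Comp/Fmod gate, whose share was higher in the atherosclerotic libraries, showed the same order, with Col3a1/Col1a1 at 0.835 and 1.10 against 0.683 and 0.700 and Col6a3/Col6a1 at 0.405 and 0.348 against 0.513 and 0.518. The Pi16/Dact2 gate gave 1.25 and 1.40 against 0.875 and 0.929 for Col3a1/Col1a1. Over the libraries, Col3a1/Col1a1 ran from 0.925 to 1.68 past the Cilp/Meox1 gate and from 0.873 to 1.39 past Penk/Epyc/Fgf10. Col6a3/Col6a1 ran from 0.315 to 0.559 and from 0.313 to 0.514 there. The order by treatment past these other gates is not given here. In smooth muscle cells Col3a1/Col1a1 (1.96, 1.90, 2.04 and 1.81) and Col6a3/Col6a1 (0.518, 0.524, 0.50 and 0.599) had no such order, while Col6a1/Col6a2 was 0.985 and 0.997 against 0.735 and 0.731. With 1 pooled library per group these differences have no replicate check and no test.

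**Figure D4:**
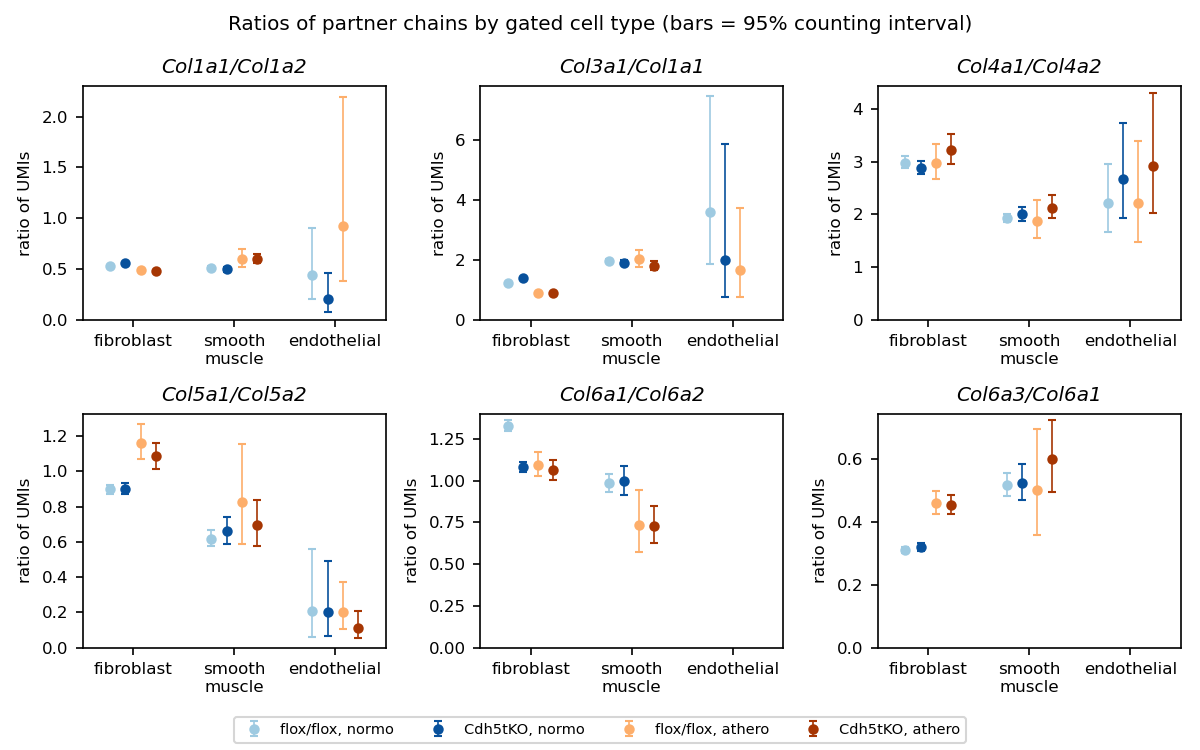
Ratio of UMIs of 6 pairs of partner chains in the fibroblast, smooth muscle and endothelial gates, 1 point per library with its 95% counting interval; a pair with under 20 UMIs in a gate and library is not drawn. In fibroblasts the atherosclerotic libraries lie below the others for Col3a1/Col1a1 (0.877 and 0.880 against 1.23 and 1.39) and above them for Col6a3/Col6a1 (0.454 and 0.459 against 0.310 and 0.320).

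The last comparisons ask how the chains differed with treatment within a genotype and with genotype within a treatment. A difference was counted at 1.5-fold between the CPM of 2 libraries with at least 20 UMIs over both. Each library takes part in a treatment and a genotype comparison, so these comparisons share libraries and are not independent of each other. In pooled sums, fewer cells of a subtype and less RNA per cell cannot be told apart.

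In fibroblasts of the Nrf2 flox/flox libraries, 2 of the 32 chains counted were higher in the atherosclerotic library (against 11.1% of all genes) and 3 lower (against 11.2%). By means over cells, in which each cell weighs the same, they were 5 and 6. From the sums, the median log2 ratio was -0.06, against 0.06 over all genes. Col14a1 was higher by 0.70 (0.67 to 0.73) and Col8a2 by 0.74 (0.13 to 1.30), and Col15a1, which anchors basement membranes to the matrix, was lower by -0.87 (-1.02 to -0.73). Col13a1 and Col9a1 went from 1.11 and 0.577 CPM to 0 UMIs, which allows 0.50 CPM. Against that limit Col13a1 was past 1.5-fold and Col9a1 was not. Between the libraries labelled Nrf2 Cdh5tKO 0 of 28 chains were higher and 16 lower in the atherosclerotic one, against 6.08% and 9.07% of all genes, with a median of -0.70 against -0.04. Col8a1 (-2.19), Col15a1 (-2.0), Col6a5 (-1.69), Col5a3 (-1.46) and Col3a1 (-1.39, counting interval -1.42 to -1.37) had the lowest ratios. Col15a1 was lower in both pairs, 1 of 27 chains against 2.94% of all genes.

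By genotype, the normocholesterolemic library labelled Nrf2 Cdh5tKO had 10 of 33 chains higher and 3 lower than Nrf2 flox/flox, against 8.58% and 7.89% of all genes, with a median of 0.34 against 0.05. Col8a1 stood at 193 CPM (188 to 199) against 23.9 (22.5 to 25.5), a log2 ratio of 3.02 (2.92 to 3.12), and Col15a1 at 346 against 131 CPM, a ratio of 1.40. Col4a1, Col4a2, Col4a3 and Col4a4 were higher by 0.71, 0.75, 0.88 and 0.68. Col9a2, a cartilage chain, had 5.70 (3.1 to 11.06) from 27 UMIs against 1. In the atherosclerotic libraries 1 of 26 chains was higher, Col8a1 by 1.01 (0.72 to 1.31), and 1 lower, Col5a3 by -0.78 (-1.10 to -0.47), against 4.75% and 4.91% of all genes, with a median of -0.16 against -0.04. Col8a1 was thereby higher under both treatments, 1 of 26 chains against 0.669% of all genes. The library labelled normocholesterolemic Nrf2 Cdh5tKO stood apart from the rest in these comparisons, and it also had the highest share of fibroblasts past the Cilp/Meox1 gate, where Col8a1 and Col15a1 were high. The part of that share in the differences was not tested.

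The same counts and medians were taken within each gate. Between the Nrf2 flox/flox libraries the median log2 ratio with treatment was -0.03 within Pi16/Dact2 and 0.00 within Penk/Epyc/Fgf10, against 0.06 and 0.08 over all genes. It was 0.33 within Cilp/Meox1, from 287 normocholesterolemic and 19 atherosclerotic cells, and -0.16 within Comp/Fmod, against -0.03 and 0.06. In the atherosclerotic genotype pair the medians of these gates were -0.14, -0.15, -0.19 and -0.15, against -0.05, -0.04, 0.01 and -0.03. Between the libraries labelled Nrf2 Cdh5tKO, 17 of 28 chains were lower in the atherosclerotic one within the Pi16/Dact2 gate (against 9.5% of all genes), 13 of 26 within Penk/Epyc/Fgf10 (8.94%), 15 of 25 within Comp/Fmod (8.84%) and 5 of 25 within Cilp/Meox1, there below the 21.5% of all genes. Between the normocholesterolemic libraries, 10 of 31, 6 of 27, 8 of 25 and 8 of 27 chains were higher with the genotype label within the same gates, against 9.0%, 9.96%, 11.0% and 12.2% of all genes. Fibroblasts not past the Cilp/Meox1 gate gave 1.05%, 1.48%, 1.04% and 0.867% of their UMIs to collagen chains, and those not past the Comp/Fmod gate 0.952%, 1.30%, 0.939% and 0.801%. In both sets the libraries kept the order of all fibroblasts at the top and the bottom, the 2 libraries labelled Nrf2 Cdh5tKO. Past the Cilp/Meox1 gate, by the shares given above, the normocholesterolemic Nrf2 flox/flox library was lowest and the atherosclerotic Nrf2 flox/flox library highest.

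Smooth muscle cells were compared in the same 4 ways. Between the Nrf2 flox/flox libraries 2 of 24 chains were higher and 4 lower with treatment (against 19.8% and 14.6% of all genes; 4 higher by means over cells), with a median of 0.00 against 0.09. Between the libraries labelled Nrf2 Cdh5tKO 1 of 23 was higher and 9 lower (7.4% and 8.78%), with a median of -0.52 against -0.03, led by Col6a6 (-1.67), Col1a2 (-1.04, counting interval -1.12 to -0.96), Col6a1 (-0.96) and Col3a1 (-0.84). By genotype 4 of 24 were higher and 1 lower in the normocholesterolemic libraries (11.2% and 6.1%, median 0.36 against 0.09) and 2 of 20 higher and 2 lower in the atherosclerotic ones (10.6% and 11.6%, median -0.23 against -0.04). Col4a4 was higher in both genotype pairs, by 0.71 (0.16 to 1.23) and 1.13 (-0.37 to 3.08), 1 of 20 chains against 0.93% of all genes, and the second interval includes 0.

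**Figure D5:**
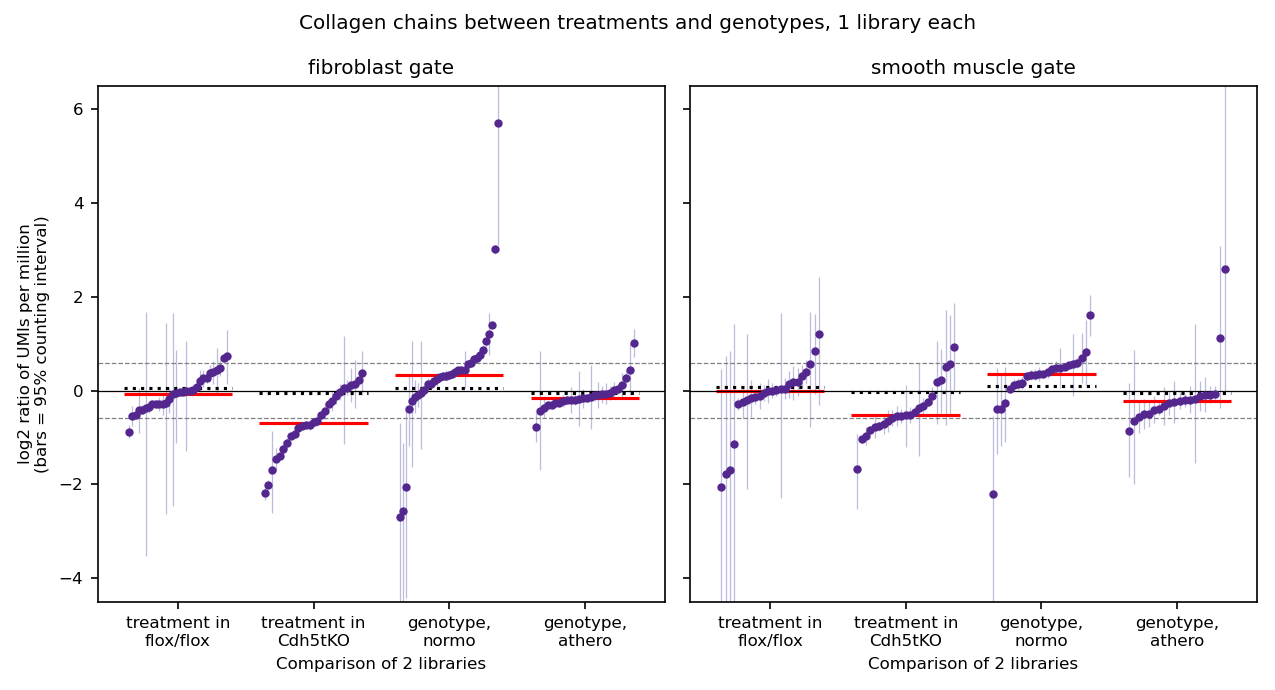
Log2 ratio of UMIs per 1000000 between 2 libraries for each chain with at least 20 UMIs over both, in the fibroblast and smooth muscle gates, with 95% counting intervals; atherosclerotic over normocholesterolemic (treatment, vector and diet together) and Nrf2 Cdh5tKO over Nrf2 flox/flox (genotype). Red lines are the median of the chains, dotted lines that of all genes, dashed lines 1.5-fold, and chains with 0 UMIs in a library are not drawn. In fibroblasts the chains lie below 0 in the treatment comparison of Nrf2 Cdh5tKO (median -0.70) and above it in the normocholesterolemic genotype comparison (median 0.34).

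In endothelial cells few chains had enough UMIs. With treatment 4 of 9 were higher and 0 lower between the Nrf2 flox/flox libraries (against 18.8% and 23.4% of all genes). Between the libraries labelled Nrf2 Cdh5tKO 3 of 8 were higher and 1 lower (18.9% and 25.0%). The median log2 ratio of the chains was -0.40 in the first pair (-0.08 over all genes) and 0.52 in the second (-0.05). In the first pair 3 chains had a counting interval above 0 and 1 had it below. Col5a2 was higher by 2.01 (1.32 to 2.75) and 2.49 (1.88 to 3.13), Col8a1 by 3.43 (2.29 to 4.82) and 2.88 (1.66 to 4.31) and Col18a1 by 2.36 (0.87 to 4.16) and 2.73 (1.58 to 4.07). These were 3 of the 7 chains counted in both pairs, against 4.94% of all genes. The intervals do not cover the spread between the 42, 27, 22 and 13 cells of the libraries. By genotype, Col5a2 was higher in both pairs, by 0.62 (-0.20 to 1.46) and 1.10 (0.63 to 1.58), 1 of 4 chains against 3.22% of all genes, and the first interval includes 0. In all, 2 of 6 chains were higher and 2 lower in the normocholesterolemic pair (15.3% and 14.9%). In the atherosclerotic pair 4 of 8 were higher and 0 lower (21.7% and 20.3%). The medians of these pairs were -0.04 and 0.44, against -0.01 and 0.06 over all genes. In the atherosclerotic genotype pair the markers of fibroblasts and smooth muscle cells in the gate were higher as well, 3489 against 426 and 3818 against 261 CPM, and their part in the result was not tested. Between the Nrf2 flox/flox libraries they were lower in the atherosclerotic one, 426 against 2214 and 261 against 681 CPM.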

How the data were processed

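Aortic arches of the 4 groups were analysed as 4 libraries, 1 per group, with the animals of a group pooled. Per the labels and the methods of the study, reads of 10x 3′ v3.1 libraries were mapped to mm10 and UMIs counted with Cell Ranger 6.1.2, and the authors deposited the filtered matrices as UMI counts per gene and barcode, not normalized. All values below were computed from these counts. The libraries held 12276546 to 98754487 UMIs.

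Following the filters of the study, barcodes stayed in when they had between 200 and 6000 genes and their mitochondrial share did not exceed 15%. Doublets were left in, since Scrublet (scanpy 1.11.5) marked 190, 64, 10 and 42 kept cells, and their removal was an alternative. A cell was given a type when it had UMIs of at least 3 of the 6 markers of a list and at least 3 more than of any of the other lists, out of 10. The marker lists were written down at the outset, but this counting rule was set after seeing the data, and types rest on markers rather than on a deposited annotation. The members, gene lists and gates were chosen with earlier results of these data known.

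UMIs were summed per library and type, and given per 1000000 (CPM) with exact Poisson 95% intervals. Shares of cells with a UMI were also taken after thinning each cell to 5000 UMIs. Types and gates with at least 10 cells in every library were compared with edgeR 4.0.16 (R 4.3.3), quasi-likelihood test, TMM scaling, filterByExpr, library as a block, and Benjamini-Hochberg adjustment over all genes tested. Cells past 1 gate only were tested in the same way with fewer cells, down to 1 in a library. The block pairs types of 1 library, so it comes from the libraries themselves. Residual spread is that between libraries that differ in condition, and with 1 library per condition no test between conditions was made. There, a difference was counted at 1.5-fold with at least 20 UMIs over both libraries, with exact binomial 95% intervals. DESeq2 1.42.0 was an alternative. Counts were simulated with 100 genes changed 2-fold or 4-fold. For fibroblasts against smooth muscle cells (10673 genes), 66 and 82 of the 100 passed the filter on low counts, and 60.6% and 100% of those were called. For endothelial against smooth muscle cells (10658 genes), 64 and 80 of the 100 passed, and 23.4% and 65.0% of those were called.

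Chains named were all members by family, the 6 highest per type, the called chains with the 8 highest and lowest folds, those past 1.5-fold in both pairs of a factor, partner chains, and of the pathway genes the 3 highest and 3 lowest. Alternatives were a stricter marker gate (4 and 4), a 10% mitochondrial limit, doublet removal, cells with at least 2000 UMIs, DESeq2 scaling and test, no filter on low counts, no block, means over cells, fibroblasts weighted to 1 makeup, cells of several gates counted in each, and leaving out each library. Each gate on its own was added after seeing the data.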

Additional observations from a re-analysis of the deposited data

Results flagged for a closer look

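For 3 chains the ratios of the 2 pairs of a factor lay past 1.5-fold in opposite directions, and the difference between the pairs was not tested. Col5a3, the minor type V chain, had a log2 ratio of 1.07 in fibroblasts of the normocholesterolemic library labelled Nrf2 Cdh5tKO over Nrf2 flox/flox and -0.78 in the atherosclerotic pair (1 of 26 chains, against 1.82% of all genes opposite in these pairs). Col12a1, a FACIT, had -2.06 in smooth muscle cells of the atherosclerotic over the normocholesterolemic Nrf2 flox/flox library and 0.93 between the libraries labelled Nrf2 Cdh5tKO (1 of 23 chains, against 3.45%). Col6a6, a type VI chain, had 1.61 in smooth muscle cells of the normocholesterolemic genotype pair and -0.64 in the atherosclerotic one (1 of 20 chains, against 2.76%). The smooth muscle ratios here rest on few UMIs. Over all 4 libraries that gate held 124 UMIs of Col12a1 and 204 of Col6a6. Its atherosclerotic Nrf2 flox/flox library had 65 cells and 731842 UMIs. In the treatment pair of Nrf2 flox/flox, 1 of the 24 chains counted in that gate had a counting interval below 0.

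The mesothelial gate, which entered no comparison, gave a mean of 0.495% of its UMIs to collagen chains over 3 libraries, above the leukocyte gates, from 7, 15 and 2 cells.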

How the results depend on the processing

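Counts of chains called between cell types, collagen shares and partner ratios stayed within 1.5 times or 1 SD under every alternative run. The stricter marker gate left fewer than 10 endothelial cells in a library, so the endothelial comparisons were not run with it. The subset counts with several-gate cells left out did not hold so well, and the cause was not tested. With the stricter marker gate, higher and lower calls were 1 of 2 higher for Pi16/Dact2, 3 of 6 higher and 1 of 2 lower for Penk/Epyc/Fgf10, 0 higher and 0 lower for Cilp/Meox1 and 0 lower for Comp/Fmod. The DESeq2 Wald test gave 1 higher for Pi16/Dact2, 0 lower for Penk/Epyc/Fgf10, 0 and 0 for Cilp/Meox1 and 0 lower for Comp/Fmod. With no replicate block the same counts were 1, 1, 0 and 0, and 0. DESeq2 size factors gave 0 lower for Cilp/Meox1, and no filter on low counts gave 5 lower for Pi16/Dact2 and 2 lower for Cilp/Meox1. Counting cells of several gates in each gave 12 higher for Cilp/Meox1 and 4 higher for Comp/Fmod. It also turned Col15a1 (-0.12), Col4a2 (-0.018) and Col8a1 (0.64) in Penk/Epyc/Fgf10 and Col8a1 (0.42) in Comp/Fmod. Col12a1 in Cilp/Meox1 turned to -0.20 with the stricter gate and lay between -0.28 and 2.37 with each library left out, the lowest without the normocholesterolemic Nrf2 flox/flox library.

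Leaving out each library in turn gave 0 to 2 higher and 1 to 3 lower for Pi16/Dact2, 1 to 3 lower for Penk/Epyc/Fgf10, 0 to 3 lower for Cilp/Meox1 and 0 to 1 lower for Comp/Fmod. With each gate on its own it gave 3 to 5 higher and 6 to 10 lower for Pi16/Dact2, 1 to 2 higher and 3 to 8 lower for Penk/Epyc/Fgf10, 1 to 3 lower for Cilp/Meox1 and 1 to 2 lower for Comp/Fmod.

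Between single libraries, means over cells gave 5 higher and 6 lower in fibroblasts with treatment in Nrf2 flox/flox, 4 higher in smooth muscle cells there, 7 higher in the normocholesterolemic genotype pair of smooth muscle cells and 5 lower in the atherosclerotic one. The stricter gate gave 1 higher in fibroblasts with treatment in Nrf2 Cdh5tKO, 1 lower in their normocholesterolemic genotype pair, and in smooth muscle cells 2 higher with treatment in Nrf2 Cdh5tKO, 3 lower in the normocholesterolemic and 1 higher in the atherosclerotic genotype pair. A 10% mitochondrial limit, doublet removal and a minimum of 2000 UMIs each gave 2 higher in smooth muscle cells with treatment in Nrf2 Cdh5tKO, and the first gave 1 lower in the atherosclerotic genotype pair. Depth limits the endothelial gate (700460 UMIs in all) and the Cilp/Meox1 cells past that gate only (414570 UMIs). The makeup that fibroblasts were weighted to had as strata cells past no gate, past Pi16/Dact2 only, past another gate only and past several, so the shares past Cilp/Meox1 and Comp/Fmod were not matched.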
